A study of Mus musculus with 10 samples.

Results

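Fibroblast growth factor (FGF) and platelet-derived growth factor (PDGF) genes were examined as 10 named genes, which were 4 FGF ligands (Fgf1, Fgf2, Fgf7 and Fgf18), 3 FGF receptors (Fgfr1, Fgfr2 and Fgfr3) and 3 PDGF ligands (Pdgfa, Pdgfc and Pdgfd). They were chosen by gene symbol, and all 10 were found among the 15078 genes of the normalized read count table. RNA sequencing of sorted CD51+CD200+ cells from mouse bone compared mesenchymal stem cells of the bone marrow (BM-MSCs) and skeletal stem cells of the periosteum (P-SSCs), both at steady state, with BM-MSCs recovered from transplanted femurs (graft BM-MSCs). The 3 BM-MSC and 3 P-SSC libraries came from Wild-type mice with no treatment. The 4 graft BM-MSC libraries came from femurs of transgenic (POSTN-CRE) donors carrying a tdTomato reporter, implanted under the skin of recipient mice that then received tamoxifen, and the Tomato+ cells were sorted at 5 months. The inducible Cre was driven by the Postn promoter, which is also used by osteoblasts and fibroblasts, so the label may not be private to P-SSCs. From flow cytometry and imaging, the study reports specific labelling of P-SSCs soon after transplantation. Graft and steady-state cells thus differed in genotype and tamoxifen as well as in transplantation. They may also differ in age, since the graft femurs stayed 5 months in the recipients before sorting. The 6 steady-state libraries were re-analysed from an earlier deposit. Libraries BM-MSC 2+4 and P-SSC 2+5 carry the numbers of 2 samples each, the study pooled RNA of mouse pairs where needed, and the labels give no ages.

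FGFs signal through receptor tyrosine kinases with the help of heparan sulfate chains on the cell surface and in the matrix. Paracrine FGFs differ in their receptors: Fgf7 and Fgf10 act on a splice form of Fgfr2, Fgf18 acts best on Fgfr3 and on other splice forms, and Fgf1 binds all of the FGF receptors. In bone, Fgfr1 and Fgfr2 are known from the osteoblast lineage and Fgfr3 from growth plate cartilage. PDGF ligands act on Pdgfra and Pdgfrb, with PDGF-A and PDGF-C binding mainly Pdgfra and PDGF-D mainly Pdgfrb, and Pdgfra marks many mesenchymal progenitors. Both pathways induce their own inhibitors, among them the Sprouty and Spred proteins and the phosphatase Dusp6.

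The sequence around the transcription start is shown for 4 genes, 2 that were higher in marrow cells (Fgf7 and Fgfr2) and 2 with their higher mean in P-SSCs (Fgf18 and Pdgfc), chosen after their values were seen because they differed strongly between the compartments. RefSeq sequences of the 250 bases before and 50 bases after the start were found for 8 of the 10 genes on build GRCm38.p6. CG pairs are in capitals. The regions are chr2:126034408-126034707 on the plus strand for Fgf7, chr7:130266759-130267058 on the minus strand for Fgfr2, chr11:33147351-33147650 on the minus strand for Fgf18 and chr3:81036166-81036465 on the plus strand for Pdgfc.
Fgf7: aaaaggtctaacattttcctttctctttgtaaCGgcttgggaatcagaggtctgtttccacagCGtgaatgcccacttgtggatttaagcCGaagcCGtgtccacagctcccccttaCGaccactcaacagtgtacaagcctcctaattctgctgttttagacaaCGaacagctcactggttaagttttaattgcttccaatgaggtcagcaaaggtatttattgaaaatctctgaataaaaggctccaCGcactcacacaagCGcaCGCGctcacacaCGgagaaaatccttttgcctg
Fgfr2: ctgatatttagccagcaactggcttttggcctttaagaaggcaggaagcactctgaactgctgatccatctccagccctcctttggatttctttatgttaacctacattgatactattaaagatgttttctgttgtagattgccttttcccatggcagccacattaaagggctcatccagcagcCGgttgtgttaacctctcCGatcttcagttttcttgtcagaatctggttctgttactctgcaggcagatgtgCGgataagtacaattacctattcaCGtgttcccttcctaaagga
Fgf18: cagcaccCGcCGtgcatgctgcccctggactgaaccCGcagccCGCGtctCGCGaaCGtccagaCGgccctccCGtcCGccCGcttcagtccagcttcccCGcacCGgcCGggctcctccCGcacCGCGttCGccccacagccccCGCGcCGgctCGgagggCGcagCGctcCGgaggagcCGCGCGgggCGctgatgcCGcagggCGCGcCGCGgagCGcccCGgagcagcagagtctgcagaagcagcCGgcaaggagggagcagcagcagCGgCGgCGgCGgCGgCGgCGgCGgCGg
Pdgfc: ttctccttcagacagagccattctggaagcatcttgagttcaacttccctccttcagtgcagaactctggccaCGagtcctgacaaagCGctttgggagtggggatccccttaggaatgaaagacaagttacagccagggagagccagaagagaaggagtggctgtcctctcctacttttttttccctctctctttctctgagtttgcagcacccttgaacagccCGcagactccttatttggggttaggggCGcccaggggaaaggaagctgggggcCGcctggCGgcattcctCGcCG
The Fgfr2 region held 4 CG pairs at 43.7% GC, the Fgf7 region 11 at 45.7% and the Pdgfc region 8 at 55.0%. The Fgf18 region held 47 CG pairs at 78.7% GC. The median over all RefSeq regions of this length was 7 CG pairs and 52.7% GC, so the Fgfr2 start lay below it and the Fgf18 start far above it. The 4 motifs searched, on both strands, do not contain one another. GGGCGG, the core bound by Sp1-type factors, was found in 35.7% of 32851 regions, TATAAA in 13.6%, the AP-1 motif TGANTCA in 7.81% and the Runx motif TGTGGT in 16.8%. None of them was found in the Fgf7, Fgfr2 or Pdgfc region. GGGCGG was found once in the Fgf18 and Fgf2 regions, and at each of the 2 starts of Pdgfa and of Fgfr3. TATAAA was found only in the Pdgfd region among these 8 genes.

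Each library held 15415421 to 25223295 assigned reads, recovered as whole reads from the normalized values. A graft BM-MSC library had no read for 22.6% to 38.3% of the genes, against 11.5% to 19.0% in steady-state libraries, so a value of 0 was more common in graft libraries. The sort antigens were present in every library, and Lepr and Cxcl12, both high in marrow stroma, were high in all 7 marrow libraries. Postn was listed at 0 in 3 of the 4 graft libraries, and the reporter labels a cell by past Cre activity. GC-rich genes split the libraries another way. The median of 51 genes over 65% GC, relative to that of 6033 genes of 50% to 60% GC, lay from 1.52 to 2.80 (log2) above the gene means in the 4 graft libraries and P-SSC 4, and from -1.81 to -1.51 in the other 5 libraries. All graft libraries were thus on one side and all BM-MSC libraries on the other, so this library property and the graft cannot be told apart in their comparison.

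Markers of other cells also moved with the groups, and their part in the results below was not tested. Chondrocyte markers summed to 37301 to 85451 normalized counts in BM-MSCs, 656 to 3884 in graft BM-MSCs, where 6 of 9 were at 0, and 735 to 2111 in P-SSCs, where 1 was at 0. Hematopoietic markers summed to 14307 to 56446 in BM-MSCs, 5166 to 87735 in graft BM-MSCs and 547 to 2387 in P-SSCs, where Ptprc was at 0. Skeletal muscle markers summed to 395 to 1496 in P-SSCs, with all 5 measured genes detected, and to 5.92 at most in any marrow library, where 4 of 5 were at 0 in each marrow group. Endothelial markers summed to 3432 to 7106 in P-SSCs, 217 to 534 in BM-MSCs and 0 to 275 in graft BM-MSCs, with 2, 1 and 4 of 6 at 0. The P-SSC sums were mostly Tek, at 6869, 4820 and 3254, while Tie1 and Emcn were at 0 in every P-SSC library and had reads in every BM-MSC library. Osteoblast and osteocyte markers summed to 581570 to 1264300 in BM-MSCs, 66371 to 99831 in graft BM-MSCs and 191480 to 428100 in P-SSCs, and erythroid markers to 58705 to 205920, 1483 to 27755 and 202 to 1407. Smooth muscle and pericyte markers summed to 9351 to 27637 in P-SSCs, 270 to 6876 in BM-MSCs and 55.4 to 3651 in graft BM-MSCs (Mcam at 0), and tendon markers to 4135 to 6867, 89.8 to 147 and 0 to 347. In sorted pools, fewer cells of a type and less RNA per cell cannot be told apart.

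**Figure D1:**
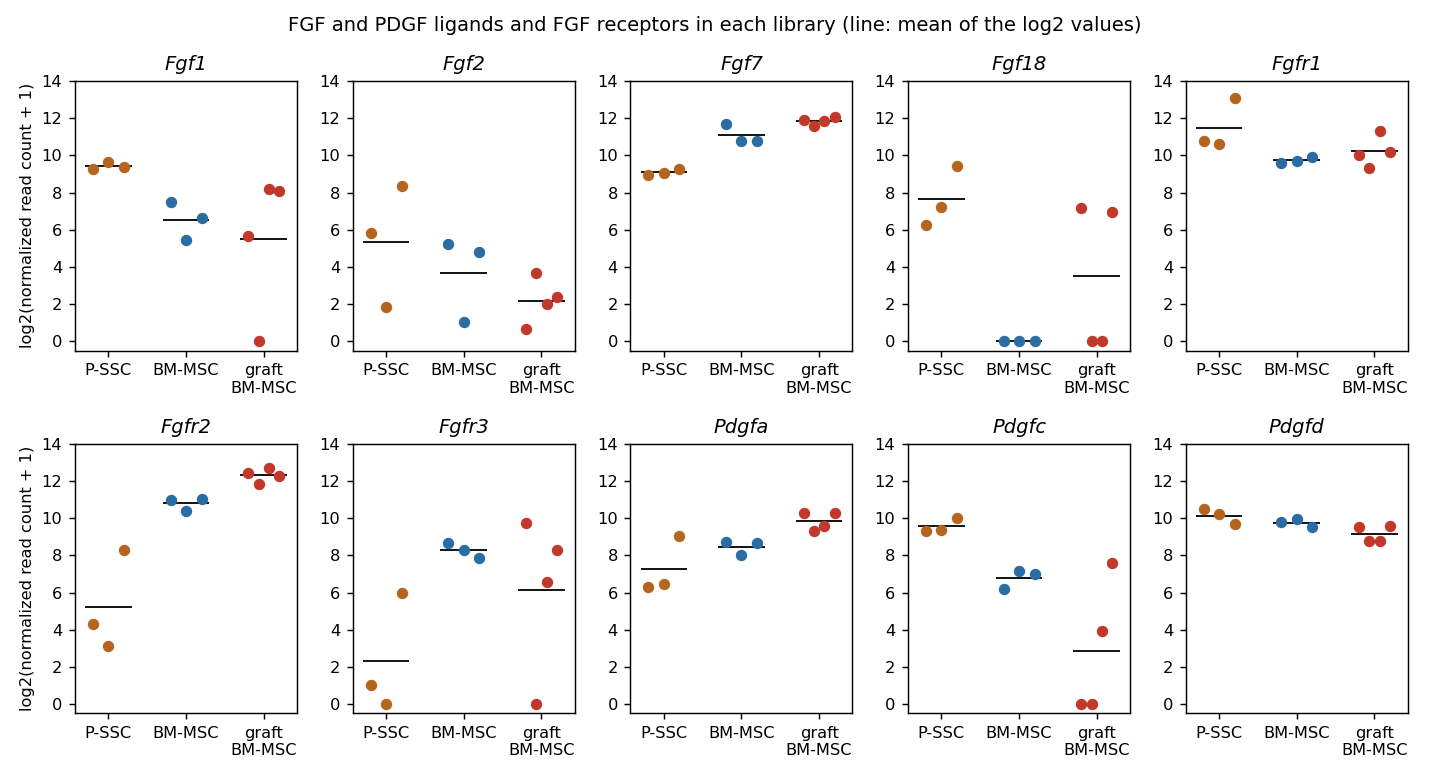
Normalized read counts of the 10 genes on a log2(value + 1) scale (y axis) in each P-SSC, BM-MSC and graft BM-MSC library (points), with the mean of the log2 values as a line. Fgf7 and Fgfr2 separate the P-SSC libraries from all 7 marrow libraries, whereas Fgf1, Fgf18, Fgfr3 and Pdgfc each have graft libraries at 0 beside graft libraries with reads.

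Fgf7 (keratinocyte growth factor, a mesenchymal ligand for epithelial-type Fgfr2) was the only FGF ligand of the set with its lowest mean in P-SSCs. Its normalized read counts were 502, 524 and 609 in P-SSCs, 3253, 1757 and 1761 in BM-MSCs (libraries 1, 2+4 and 3), and 3866.5, 3109, 3751 and 4214 in graft BM-MSCs. No P-SSC library reached the lowest marrow library, and the BM-MSC and graft ranges overlapped. P-SSCs had a mean of 545 ± 56.6 (SD, n = 3), BM-MSCs of 2257 ± 863 (SD, n = 3) and graft BM-MSCs of 3735 ± 461 (SD, n = 4). On the log2(value + 1) scale Fgf7 was higher in graft BM-MSCs than in P-SSCs by 2.77 ± 0.27 (SE; limma, Benjamini-Hochberg adjusted p = 9.43e-05). It was lower in P-SSCs than in BM-MSCs (log2 change -1.99 ± 0.29 SE, limma adjusted p = 0.00128). The difference between graft and steady-state BM-MSCs was 0.78 (95% interval 0.17 to 1.39) and did not pass after adjustment (limma adjusted p = 0.112). Fgf7 lies on chromosome 2 from 126034658 to 126091185 (GENCODE M21, GRCm38), shares no exon with another gene, and had a GC content of 38.0% against a median of 49.7% for the genes tested.

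The other 3 FGF ligands had their highest group mean in P-SSCs, and none passed the test in any comparison. Fgf1 (acidic FGF) had 618, 804 and 672 normalized counts in P-SSCs, 178, 43.2 and 99.6 in BM-MSCs, and 49.7, 0, 295 and 268 in graft BM-MSCs. All 3 P-SSC libraries lay above all 7 marrow libraries. The log2 difference was 2.91 (95% interval -1.18 to 6.99) for P-SSCs against BM-MSCs and -3.95 (95% interval -7.77 to -0.13) for graft BM-MSCs against P-SSCs, with limma adjusted p = 0.527 and 0.140. The estimate of the spread was shared by the 3 groups, and 1 graft library had no read. With the graft libraries left out of the fit, Fgf1 passed between P-SSCs and BM-MSCs (limma adjusted p = 0.0192).

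Fgf18, a ligand of the osteogenic and cartilage programmes, was at 0 reads in all 3 BM-MSC libraries. Its counts were 74.8, 148 and 696 in P-SSCs and 145, 0, 0 and 124 in graft BM-MSCs. P-SSCs and BM-MSCs did not overlap, and the P-SSC mean was at least 99.2-fold higher than the mean of the BM-MSC libraries' 3-read floors (3.09). Without P-SSC 4, its highest library, that bound was 36.1-fold. The log2 difference of 7.64 ± 2.14 (SE) missed the threshold (limma adjusted p = 0.0525). It passed without the graft libraries (limma adjusted p = 0.00419) and among the 5 libraries low in GC-rich genes, which leave out P-SSC 4 (6.73, limma adjusted p = 0.00382). Graft BM-MSC 1 and 4 had counts like that of P-SSC 2+5 and graft BM-MSC 2 and 3 had none, so the graft group overlapped both others. Fgf18 lies on chromosome 11 from 33117430 to 33147400 and has a GC content of 56.2%, and P-SSC 4 was the P-SSC library with GC-rich genes high.

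Fgf2 (basic FGF) had 56.1, 2.55 and 329 normalized counts in P-SSCs, 36.6, 1.05 and 26.6 in BM-MSCs, and 0.565, 11.8, 3.02 and 4.32 in graft BM-MSCs. The graft values stand for 1, 14, 3 and 5 reads. All 3 groups overlapped, and within P-SSCs the highest library was 129-fold over the lowest. A difference of graft BM-MSCs from P-SSCs of -3.16 (95% interval -6.97 to 0.66) did not pass (limma adjusted p = 0.233), whereas DESeq2 on the recovered reads called it (-4.69, DESeq2 adjusted p = 0.0196). Fgf2 passed the filter on low values (a mean of at least 10) only through the P-SSC libraries, where it was highest, which limits what that call can show. Fgf2 lies on chromosome 3 from 37348346 to 37410108, and its exons overlap those of Nudt6 on the opposite strand and Gm43439 on the same strand, and whether reads were counted by strand is not given in the sources used here.

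Of the other FGF ligands listed, 9 of 18 were in the table and 4 passed the filter on low values. Fgf10, the limb-bud and epithelial ligand closest to Fgf7, was at 0 in all 7 marrow libraries and had 322, 236 and 64.0 normalized counts in P-SSCs. That was at least 67.2-fold over the BM-MSC floor and at least 84.3-fold over the graft floor (limma adjusted p = 0.000534 and 0.000244). Fgf16 was likewise at 0 in every marrow library, with 68.6, 20.4 and 130 in P-SSCs (limma adjusted p = 0.00144 and 0.000710). Fgf10 and Fgf16 passed the filter on low values only through the P-SSC libraries. With edgeR on the recovered reads Fgf16 was called in neither comparison and Fgf10 not between P-SSCs and BM-MSCs, and DESeq2 did not call Fgf16 between P-SSCs and BM-MSCs. The related ligands Fgf7 and Fgf10 thus lay on opposite sides of the marrow and periosteum contrast.

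Of Fgfr1, Fgfr2 and Fgfr3, only Fgfr2 separated the P-SSC libraries from every marrow library. It had 18.7, 7.64 and 313 normalized counts in P-SSCs, 2048, 1345 and 2063 in BM-MSCs, and 5444, 3717, 6621 and 5009 in graft BM-MSCs. The 3 groups did not overlap, with every graft library above every BM-MSC library and every P-SSC library below both. The means were 113 ± 173 (SD, n = 3), 1819 ± 411 (SD, n = 3) and 5198 ± 1199 (SD, n = 4), so P-SSCs were 16.1-fold below BM-MSCs and 45.9-fold below graft BM-MSCs. P-SSC 4 set most of the P-SSC mean, and without it, a choice made after seeing the data, the folds were 138 and 395. On the log2 scale Fgfr2 was lower in P-SSCs than in BM-MSCs (log2 change -5.57 ± 1.03 SE, limma adjusted p = 0.00540) and higher in graft BM-MSCs than in P-SSCs by 7.08 ± 0.96 (SE; limma adjusted p = 0.000579). The difference between graft and steady-state BM-MSCs was 1.51 (95% interval -0.62 to 3.64, limma adjusted p = 0.351).

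That last difference depended on how the libraries were handled. It passed when only the graft and BM-MSC libraries were fitted (limma adjusted p = 0.0109) and when P-SSC 4, with 313 counts, was left out (limma adjusted p = 0.0262). With the GC-rich gene split as a covariate, which rests on P-SSC 4 against the other P-SSCs, it turned to -3.08 (limma adjusted p = 0.132). Fgfr2 is annotated on the minus strand of chromosome 7 from 130162451 to 133123350, and its annotated exons (10328 bases merged) share bases with Ctbp2 on the same strand through a readthrough model, so reads in the shared exons may not be assigned to one gene. Its GC content was 50.2%.

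Fgfr1, the receptor tyrosine kinase used widely in mesenchyme, had 1752, 1568 and 8587 normalized counts in P-SSCs, 783, 817 and 965 in BM-MSCs, and 1030.5, 638, 2549 and 1176 in graft BM-MSCs. Every P-SSC library was above every BM-MSC library, whereas the graft range overlapped both. The log2 difference of P-SSCs from BM-MSCs was 1.75 (95% interval 0.30 to 3.20) and did not pass (limma adjusted p = 0.151). P-SSC 4 stood far above the others, and without it and the graft libraries the difference was 0.96 (limma adjusted p = 0.0242). Fgfr1 lies on chromosome 8 from 25513654 to 25575718 with a GC content of 55.4%. Graft BM-MSCs differed from P-SSCs by -1.27 (95% interval -2.63 to 0.08, limma adjusted p = 0.177), a value of -0.48 without P-SSC 4, of -0.36 with GC correction and of -2.86 with the GC covariate, where it passed (limma adjusted p = 0.0238). They differed from BM-MSCs by 0.48 (95% interval -0.88 to 1.83).

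Fgfr3, the receptor of growth plate chondrocytes, had 1.04, 0 and 61.1 normalized counts in P-SSCs, that is 1, 0 and 63 reads, and 399, 312 and 234 in BM-MSCs. The graft libraries ranged from 0 to 869, with 869, 0, 92.6 and 315 in order. P-SSCs lay below BM-MSCs in every library, but the difference of -5.94 (95% interval -11.26 to -0.62) did not pass in the fit of all groups (limma adjusted p = 0.194). It passed among the 5 libraries low in GC-rich genes (-7.76, limma adjusted p = 0.00492). Fgfr3 lies on chromosome 5 from 33721674 to 33737068 with a GC content of 56.4%. Graft and steady-state means were 319 ± 390 (SD, n = 4) and 315 ± 82.6 (SD, n = 3), and the log2 difference of -2.12 was within a 95% interval of -7.09 to 2.86. Chondrocyte markers summed to 37301 to 85451 in BM-MSCs and 656 to 3884 in graft BM-MSCs, and Sox9 among them had 23.2 to 65.8 in BM-MSCs and 114 to 933 in graft BM-MSCs. Their part was not tested.

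The balance of the 3 receptors was compared within each library as normalized counts per kilobase of exon, a ratio on which the scaling of a library has no effect. Fgfr1 made up 98.9%, 99.5% and 95.7% of the 3 in P-SSCs. Fgfr2 made up 59.5%, 50.7% and 60.5% in BM-MSCs and 70.0%, 84.8%, 70.3% and 74.8% in graft BM-MSCs. P-SSCs were thus nearly all Fgfr1 among these 3 receptors, and the marrow groups mostly Fgfr2, without overlap of the 3 groups in the Fgfr2 share. Fgfr4, with 265, 874 and 344 normalized counts in P-SSCs and 0 in every marrow library, was not part of the sum. The mean Fgfr2 share was 1.60% ± 1.53 (SD, n = 3), 56.9% ± 5.37 (SD, n = 3) and 75.0% ± 6.90 (SD, n = 4). With the longest transcript of each gene as its length, a choice made after seeing the data, these means were 1.90%, 62.2% and 78.6%. The log2 ratio of Fgfr2 to Fgfr1 per kilobase was -6.40 ± 1.46 (SD) in P-SSCs, 1.00 ± 0.34 (SD) in BM-MSCs and 2.04 ± 0.52 (SD) in graft BM-MSCs. The ratio differed by -7.40 between P-SSCs and BM-MSCs and by 8.44 between graft BM-MSCs and P-SSCs with no overlap. Each had the smallest p that a two-sided exact permutation test allows at this size (0.10 and 0.0571), which only restates the lack of overlap. Between graft and steady-state BM-MSCs the ratio differed by 1.04, with overlap of graft BM-MSC 3 and BM-MSC 1 (exact permutation p = 0.114). The shares and ratios were not corrected for GC content, which was 50.2% for Fgfr2 and 55.4% for Fgfr1. The GC-rich gene split also separates these marrow groups. With that split as a covariate, graft BM-MSCs differed from BM-MSCs by -3.08 for Fgfr2 and -1.90 for Fgfr1, so Fgfr2 no longer rose relative to Fgfr1.

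**Figure D2:**
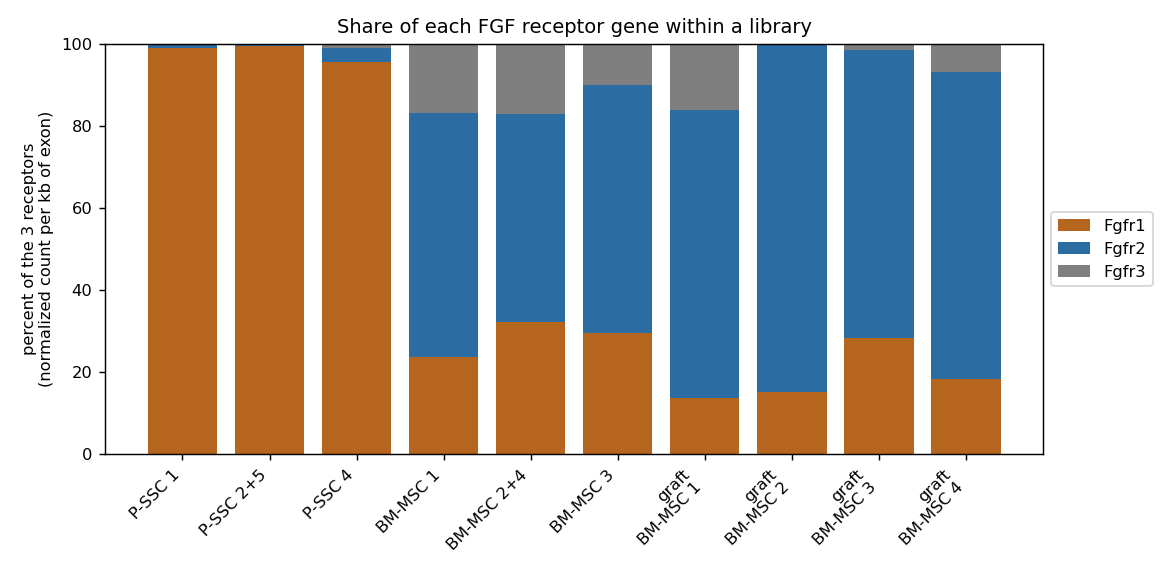
Share (percent, y axis) of Fgfr1, Fgfr2 and Fgfr3 in the sum of the 3 receptors, as normalized counts per kilobase of exon, for each library (bars). The P-SSC bars are at least 95.7% Fgfr1, whereas the Fgfr2 part runs from 50.7% to 60.5% in BM-MSCs and from 70.0% to 84.8% in graft BM-MSCs. Fgfr4 is not part of the sum.

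Among the remaining receptors, Fgfr4 was at 0 in all 7 marrow libraries and had 265, 874 and 344 normalized counts in P-SSCs. It was at least 160-fold over the BM-MSC floor and at least 201-fold over the graft floor (limma adjusted p = 0.000222 and 0.000100), and without P-SSC 2+5 these bounds were 98.7-fold and 124-fold. Like Fgf10 and Fgf16, Fgfr4 passed the filter on low values only through the P-SSC libraries. Skeletal muscle markers, with sums of 395 to 1496 in P-SSCs and at most 5.92 in marrow libraries, moved with it, and their part was not tested. Fgfrl1, a receptor without a kinase domain, had 34.3, 108 and 218 counts in P-SSCs, 444, 253 and 291 in BM-MSCs, and 4270, 715, 5035 and 3174 in graft BM-MSCs. Every graft library was above every steady-state library. Fgfrl1 rose in graft BM-MSCs by 4.81 ± 0.77 (SE) against P-SSCs and by 3.04 ± 0.77 (SE) against BM-MSCs (limma adjusted p = 0.00154 and 0.0394), and the second call was lost in 11 of 23 alternatives, among them the GC covariate (1.22).

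Pdgfa, the chain that signals through Pdgfra in progenitor growth, had 77.9, 87.9 and 521 normalized counts in P-SSCs, 420, 259 and 405 in BM-MSCs, and 1221, 638, 759 and 1222 in graft BM-MSCs. All graft libraries lay above all steady-state libraries, whereas P-SSC 4 lay above the BM-MSCs and the other P-SSCs below them. Pdgfa was higher in graft BM-MSCs than in P-SSCs by 2.58 ± 0.66 (SE; limma adjusted p = 0.0208). The call was lost when either of the low P-SSC libraries was left out (limma adjusted p = 0.0955 without P-SSC 1 and 0.0863 without P-SSC 2+5), and the GC covariate reduced the difference to 0.82. The difference of graft from steady-state BM-MSCs was 1.38 (95% interval -0.08 to 2.84, limma adjusted p = 0.219). It passed when only those 2 groups were fitted (limma adjusted p = 0.0479), and turned to -1.26 with the GC covariate.

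Pdgfc, a PDGF that needs cleavage of its CUB domain to act, showed the reverse order. It had 641, 662 and 1015 normalized counts in P-SSCs, 72.1, 139 and 128 in BM-MSCs, and 0, 0, 14.1 and 193 in graft BM-MSCs. Every P-SSC library was above every marrow library. Pdgfc was lower in graft BM-MSCs than in P-SSCs (log2 change -6.68 ± 1.71 SE, limma adjusted p = 0.0214), but the adjusted p rose to 0.0789, 0.0738 and 0.060 as P-SSC 1, 2+5 or 4 was left out. P-SSCs exceeded BM-MSCs 6.83-fold in the mean, a log2 difference of 2.78 (95% interval -1.27 to 6.83, limma adjusted p = 0.557), which passed when the graft libraries were left out of the fit (limma adjusted p = 0.00574). Between graft and steady-state BM-MSCs the difference was -3.90 (95% interval -7.69 to -0.11, limma adjusted p = 0.186), and without graft BM-MSC 4, the highest graft library, it was -5.47 (limma adjusted p = 0.0298).

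Pdgfd, the other CUB-domain PDGF, differed least. It had 1442, 1173 and 814 normalized counts in P-SSCs, 869.95, 985 and 744 in BM-MSCs, and 735, 430.1, 433 and 750.02 in graft BM-MSCs. The P-SSC and BM-MSC ranges overlapped, and the graft libraries lay below all P-SSC libraries. Graft BM-MSCs differed from P-SSCs by -0.97 (95% interval -1.75 to -0.19, limma adjusted p = 0.0826) and from BM-MSCs by -0.60 (95% interval -1.38 to 0.18), against medians over all genes of -0.47 and -0.53 in these comparisons. Without P-SSC 4 the difference from P-SSCs was -1.20 (limma adjusted p = 0.0357), and DESeq2 on the recovered reads called it with all libraries (-0.99, DESeq2 adjusted p = 0.0377). Pdgfa lies on chromosome 5 from 138976014 to 138997370, Pdgfc on chromosome 3 from 81036416 to 81214040 and Pdgfd on chromosome 9 from 6168584 to 6378850, and Fgfr1, Fgfr3, Pdgfa and Pdgfc each share exon bases with a gene on the opposite strand.

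Per kilobase of exon, Fgf7 was the most abundant of the 10 transcripts in both marrow groups, at a mean of 1150 normalized counts per kilobase in graft BM-MSCs and 695 in BM-MSCs. Fgfr2 followed in graft BM-MSCs (503) and Pdgfd in BM-MSCs (275). In P-SSCs Fgfr1 (402) and Pdgfd (362) had the highest means, but the Fgfr1 mean had an SD of 405 set by P-SSC 4. Among the PDGF ligands, Pdgfa exceeded Pdgfc per kilobase in all 5 marrow libraries with Pdgfc reads, by 1.60 to 6.46 on the log2 scale. The order was the other way in all 3 P-SSC libraries, from -2.33 to -0.26.

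PDGF receptors differed as well. Pdgfra had 14223, 6193 and 9474 normalized counts in P-SSCs, 4935, 3486.5 and 5733 in BM-MSCs, and 2576, 2161, 2689 and 2865 in graft BM-MSCs. The 3 groups did not overlap, and the fall in graft BM-MSCs against P-SSCs passed the test (log2 change -1.88 ± 0.29 SE, limma adjusted p = 0.00123). Pdgfrb had 10675, 6981 and 8402 in P-SSCs, 27988, 34403 and 33763 in BM-MSCs, and 17728, 10490, 19875 and 17611 in graft BM-MSCs. It was highest in BM-MSCs, and passed in each comparison (log2 change -1.90 for P-SSCs against BM-MSCs, 0.90 for graft against P-SSCs and -0.999 for graft against BM-MSCs, limma adjusted p = 0.000754, 0.0258 and 0.0323). The graft library of 10490 lay within the P-SSC range, and the call of 0.90 was kept in 14 of 23 alternatives. The call between graft and steady-state BM-MSCs was lost in 9 of 23 alternatives and turned in 1 (0.13). Pdgfb, the chain that recruits pericytes, was at 0 in all 7 marrow libraries and had 20.8, 0 and 52.3 counts in P-SSCs, too few to be tested.

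**Figure D3:**
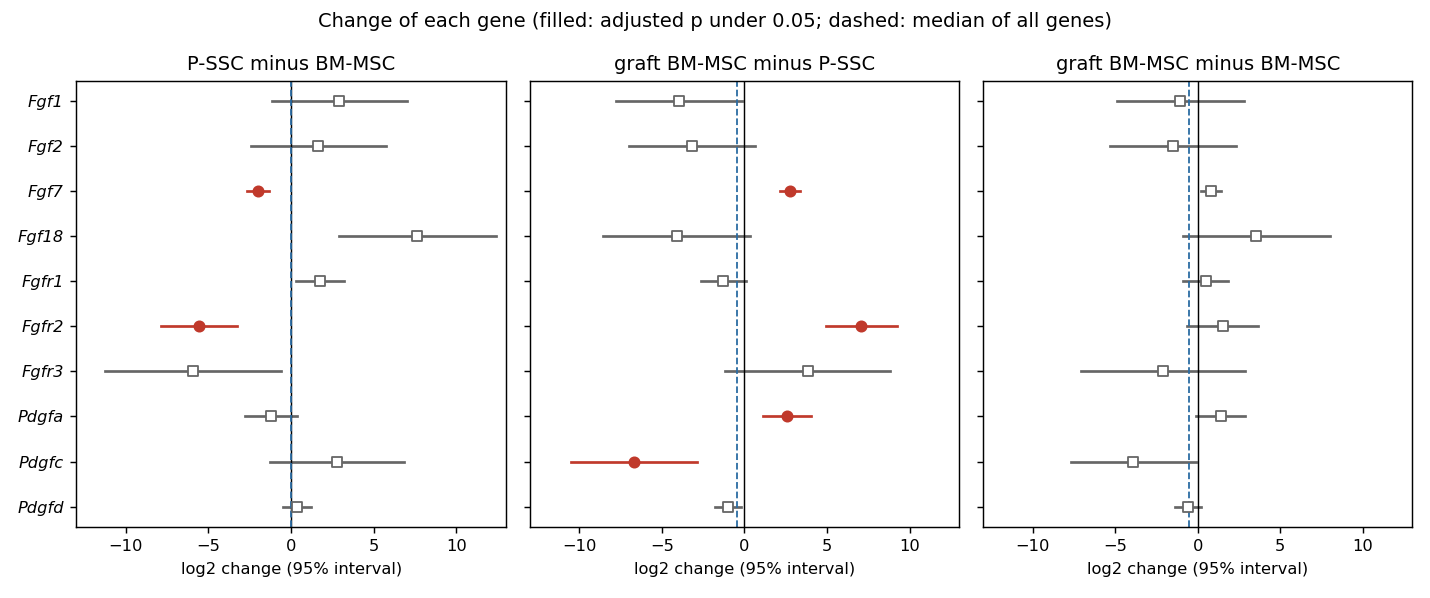
Log2 change (x axis, points) with its 95% interval (lines) of each of the 10 genes in the 3 comparisons, filled where the limma adjusted p was under 0.05, with the median over all genes dashed. Fgf7 and Fgfr2 pass in both comparisons with P-SSCs, Pdgfa and Pdgfc between graft BM-MSCs and P-SSCs, and no gene passes between graft and steady-state BM-MSCs.

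Counted over the set, 4 of the 10 genes passed between graft BM-MSCs and P-SSCs, 3 higher in graft (Fgf7, Fgfr2 and Pdgfa) and 1 lower (Pdgfc). Of the 13644 genes tested, 18.1% passed in this comparison, 6.08% higher and 12.0% lower. Between P-SSCs and BM-MSCs 2 of 10 passed, both lower in P-SSCs (Fgf7 and Fgfr2), where 9.15% of all genes passed, 4.57% higher and 4.58% lower. Between graft and steady-state BM-MSCs 0 of 10 passed with limma, 2 had an unadjusted p under 0.05, edgeR on the recovered reads called 0 and DESeq2 called 1. In that comparison 7.67% of all genes passed, 2.61% higher and 5.06% lower. The median log2 change of the 10 genes was -1.12, 1.01 and -0.06 in these comparisons in the order given, against -0.47, 0.00 and -0.53 over all genes, and the same with Fgf18 set to its bound. The first and second comparisons share the P-SSC libraries, and the graft and BM-MSC libraries are each used in 2 comparisons.

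The feedback inhibitors of receptor tyrosine kinase signalling were led by Spry1, a Sprouty protein that restrains the Ras pathway downstream of FGF receptors. It had 265, 259 and 245 normalized counts in P-SSCs, 1796, 1708.5 and 1829 in BM-MSCs, and 11940, 13973, 10828 and 16424 in graft BM-MSCs. The 3 groups were far apart with little spread inside each, at 256 ± 10.02 (SD, n = 3), 1778 ± 62.2 (SD, n = 3) and 13291 ± 2462 (SD, n = 4). Spry1, like Pdgfrb and Sulf1 among the pathway genes, passed in all 3 comparisons, with log2 changes of -2.79 ± 0.23 (SE) for P-SSCs against BM-MSCs, 5.67 ± 0.21 (SE) for graft against P-SSCs and 2.88 ± 0.21 (SE) for graft against BM-MSCs (limma adjusted p = 4.47e-05, 1.35e-07 and 0.000514). The order of the groups was that of Fgfr2. The 5.67 was still called in all 23 alternatives, and with the GC covariate the difference between graft and steady-state BM-MSCs was 2.98 (limma adjusted p = 0.0219).

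Other inhibitors were less uniform. Against P-SSCs, 4 of the 13 feedback inhibitors tested rose and 1 (Flrt3) fell in graft BM-MSCs, where 6.08% of all genes were higher and 12.0% lower. Further calls were 3 that rose and 1 that fell in graft against steady-state BM-MSCs, where 2.61% of all genes were higher and 5.06% lower. Between P-SSCs and BM-MSCs, 1 was higher and 1 lower in P-SSCs, where 4.57% of all genes were higher and 4.58% lower. Spred1, a Ras inhibitor, rose in graft BM-MSCs against both groups (3.71 ± 0.74 SE and 3.36 ± 0.74 SE, limma adjusted p = 0.00585 and 0.0242). Errfi1, an inhibitor of EGF receptor kinases, also rose in graft BM-MSCs against both (1.68 and 2.13, limma adjusted p = 0.0145 and 0.0118), with the 2 differences reduced to 0.48 and 0.32 by the GC covariate. Dusp6, the ERK phosphatase, rose against P-SSCs (1.79 ± 0.44 SE, limma adjusted p = 0.0174), with counts of 490 to 689 in P-SSCs, 1001 to 1862 in BM-MSCs and 1073 to 4320 in graft BM-MSCs. Flrt3, listed with the inhibitors as a gene induced by FGF but known to bind FGF receptors and promote their signal, was at 0 in all 4 graft libraries, against 90.7 to 102 in BM-MSCs and 169 to 663 in P-SSCs (limma adjusted p = 0.00512 and 0.000338). Its relative Flrt2 was higher in P-SSCs than in BM-MSCs (4.00 ± 0.81 SE, limma adjusted p = 0.00927). Spry2, Spry4 and Spred2 passed in no comparison, with Spry4 at 140 to 391.6 in P-SSCs, 387 to 649 in BM-MSCs and 372 to 1971 in graft BM-MSCs.

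**Figure D4:**
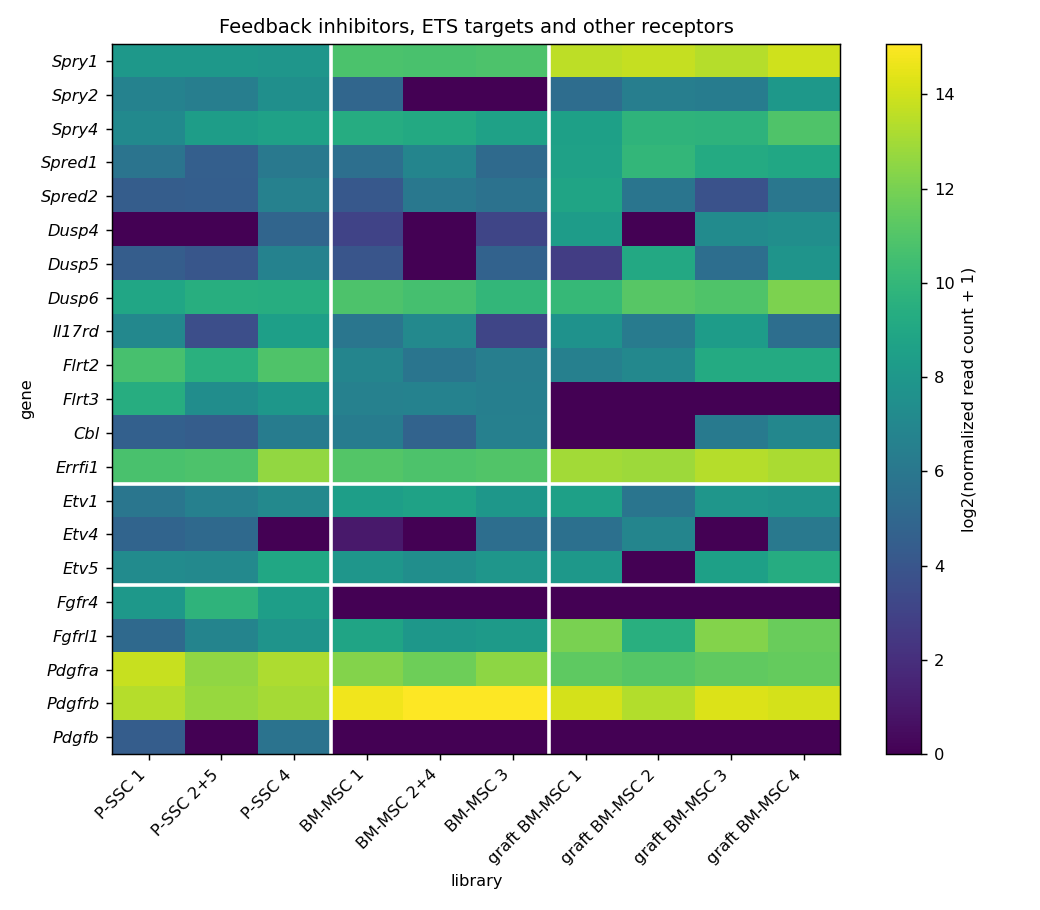
Log2(normalized read count + 1) (colour) of feedback inhibitors (top block), ETS-family targets (middle) and the other FGF and PDGF receptors with Pdgfb (bottom) in each library (columns). Spry1 steps up from 245 to 265 counts in P-SSCs through 1708.5 to 1829 in BM-MSCs to 10828 to 16424 in graft BM-MSCs, and Flrt3 is at 0 in the 4 graft libraries.

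The 8 listed transcriptional targets of the pathway were 7 transcription factors and the cyclin Ccnd1. Against P-SSCs, 0 of them rose in graft BM-MSCs and 1 fell by limma, against 6.08% and 12.0% of all genes. In graft against steady-state BM-MSCs 1 was higher, against 2.61% of all genes, and 1 was higher in P-SSCs than in BM-MSCs, against 4.57%. The ETS factors Etv1, Etv4 and Etv5 passed in no comparison. Egr1, an immediate early gene, had 878 to 1286 normalized counts in BM-MSCs, 15279 to 72136 in graft BM-MSCs, and 4233, 3222 and 36250 in P-SSCs. Its rise in graft BM-MSCs against BM-MSCs was 5.39 ± 0.79 (SE; limma adjusted p = 0.00401), and 2.09 with the GC covariate. Within P-SSCs the high library was again P-SSC 4. Myc was lower in graft BM-MSCs than in P-SSCs (-2.15 ± 0.61 SE, limma adjusted p = 0.0345) and higher in P-SSCs than in BM-MSCs (2.65 ± 0.65 SE, limma adjusted p = 0.0288), calls kept in 11 of 23 and 15 of 24 alternatives.

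Heparan sulfate proteoglycans, the co-receptors of FGFs, and the enzymes that build or edit their chains differed between the compartments in both directions. Against P-SSCs, 4 of 19 tested rose and 4 fell in graft BM-MSCs, where 6.08% of all genes were higher and 12.0% lower. Of these 8 calls, 3 were of enzymes (Hs6st1, Sulf1 and Sulf2). The syndecan Sdc1 had 116, 144 and 950 normalized counts in P-SSCs, 8756, 5151 and 5947 in BM-MSCs, and 6435 to 9917 in graft BM-MSCs, and passed in both comparisons with P-SSCs (4.95 and -4.67, limma adjusted p = 0.000314 and 0.000907). Its pattern resembled that of Fgfr2 in that all marrow libraries were high, though it did not differ between the marrow groups beyond their spread (0.28 ± 0.61 SE). The glypican Gpc3 had 9008 to 13837 counts in P-SSCs, 208 to 324 in BM-MSCs, and 0, 0, 0 and 129 in graft BM-MSCs, and was lower in graft BM-MSCs than in both (limma adjusted p = 0.000509 and 0.0391). The second of these calls was lost in 16 of 23 alternatives. Sulf1, which removes 6-O-sulfates and so alters FGF binding, fell from 4544 to 6542 counts in P-SSCs to 2619 to 3162 in BM-MSCs and 668 to 794 in graft BM-MSCs (limma adjusted p = 0.0270, 2.21e-05 and 0.00182 for P-SSCs against BM-MSCs, graft against P-SSCs and graft against BM-MSCs), with the first call kept in 14 of 24 alternatives. Sulf2 was lower (-8.38) and the 6-O-sulfotransferase Hs6st1 higher (6.44) in graft BM-MSCs than in P-SSCs (limma adjusted p = 0.0286 and 0.00959), calls kept in 11 of 22 and 19 of 23 alternatives with an adjusted p. Hs6st1 passed the filter on low values only through the graft libraries, where it was high. The syndecan Sdc3 rose in graft BM-MSCs against P-SSCs and BM-MSCs (4.92 and 2.86, limma adjusted p = 0.00118 and 0.0456), and Gpc1 rose against P-SSCs (3.20, limma adjusted p = 0.0101). The second call of Sdc3 was kept in 11 of 23 alternatives and turned to -0.21 with the GC covariate.

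Plat and Plau, proteases that activate PDGFs, were highest in P-SSCs. Plat, the tissue plasminogen activator that cleaves PDGF-C, had 15796, 23688 and 10641 normalized counts in P-SSCs, 193, 131 and 127 in BM-MSCs, and 745, 0, 0 and 294 in graft BM-MSCs. Plau, the urokinase that cleaves PDGF-D, had 580, 791 and 272 in P-SSCs, 0 in each BM-MSC library and 0.863 in 1 graft library. Both were lower in graft BM-MSCs than in P-SSCs (limma adjusted p = 0.0119 and 0.000123), and Plau was higher in P-SSCs than in BM-MSCs by at least 178-fold over the floor (limma adjusted p = 0.000232). Plau passed the filter on low values only through the P-SSC libraries. The difference of Plat between P-SSCs and BM-MSCs did not pass (6.74, limma adjusted p = 0.116). Furin, which processes the PDGF-A precursor, was higher in graft BM-MSCs than in P-SSCs (2.67 ± 0.57 SE, limma adjusted p = 0.00840). Sparc, a matrix protein that binds PDGF, fell in graft BM-MSCs against P-SSCs and BM-MSCs (-1.42 and -1.53, limma adjusted p = 0.00631 and 0.0120). These calls were kept in 18 and 15 of 23 alternatives, and the smallest changes were -0.21 and -0.41. By group mean alone, Pdgfc and Plat were thus both highest in P-SSCs, and Pdgfa and Furin in graft BM-MSCs. Pdgfc and Plat did not pass between P-SSCs and BM-MSCs. Between graft and steady-state BM-MSCs, Pdgfa did not pass and neither did Furin (1.48, limma adjusted p = 0.138). St14, another protease listed, had its highest mean in BM-MSCs (33.1) and passed in no comparison.

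Over the whole list of 96 other FGF and PDGF pathway genes, 84 were in the table and 76 were tested. Between graft BM-MSCs and P-SSCs 27 of them passed, 13 higher and 14 lower, where 18.1% of all genes passed, with a median log2 change of 0.36 against -0.47 over all genes. Between graft and steady-state BM-MSCs 14 passed, 9 higher and 5 lower, where 7.67% of all genes passed, with a median of 0.27 against -0.53. Between P-SSCs and BM-MSCs 11 passed, 7 higher and 4 lower, where 9.15% of all genes passed, with a median of 0.35 against 0.00. Among the 20 adaptors and transducers, Hras and Map2k2 were higher in graft than in steady-state BM-MSCs (4.77 and 3.36, limma adjusted p = 0.00786 and 0.035), and Map2k2 turned in sign with the GC covariate (-0.43).

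Across the 10 libraries, Fgfr2 correlated most strongly with Fgf7 (Pearson r = 0.93) and Pdgfa (r = 0.91) among the 10 genes, on log2 values. The lowest correlation was that of Fgfr2 with Pdgfd (r = -0.77), and Fgf1 followed Pdgfc (r = 0.78). These values describe 10 libraries in 3 groups, and the group differences enter each of them. Over all genes with a mean of at least 100, Fgfr2 was most like Grb14 (r = 0.99), an adaptor protein that binds receptor tyrosine kinases. Fgf7 was most like Sema7a (r = 0.99), a membrane semaphorin with 0 in every P-SSC library, Pdgfa like Ifngr2 (r = 0.99) and Pdgfc like Myo7a (r = 0.97). Pdgfd was most like Kctd10 (r = 0.96), Fgfr3 like Il2rg (r = 0.95), Fgfr1 like Tmem158 (r = 0.94), Fgf18 like Camk1 (r = 0.93) and Fgf2 like Cdv3 (r = 0.91).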

How the data were processed

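RNA of 10 sorted mouse stromal samples was sequenced after poly-T capture. The authors mapped reads with STAR, counted them per gene with featureCounts and deposited a signal of gene counts divided by DESeq2 size factors. Per the submitters' processing notes, cutadapt 1.15, FastQC 0.11.5, STAR 2.5, Subread 1.4.6, DESeq2 1.26.0 and build GRCm39 were used, whereas the methods name build GRCm38 and another STAR version, and strand and annotation release are not given in the sources used here. Gene positions and lengths were taken from GENCODE M21 (GRCm38), and 15052 of 15078 genes matched by identifier.

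The 10 genes and the pathway and marker lists were chosen with earlier results of these data known. Each group came from the labels. Values were tested as log2(value + 1) with limma 3.58.1 (R 4.3.3; trend, two-sided, 3 groups in 1 fit with 7 residual degrees of freedom) over the 13644 genes with a mean of at least 10, adjusted by Benjamini-Hochberg, and called at 0.05. Fold changes on this scale understate those of low genes. Standard errors and p-values measure the spread between libraries. Whole reads were recovered from the values (100% whole within 0.01 reads in each library) for edgeR 4.0.16 and DESeq2 1.42.0, used as alternatives. A floor was 3 reads, and it covers counting error only. Genes were named by rule: all 10, the pathway genes past the threshold, the other receptors, Pdgfb, inhibitors and targets, and for each of the 10 the gene with the highest correlation. Some results under this rule are not reported here. The fits were tested on simulated data.

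Alternatives changed the pseudocount, filter, scaling, groups fitted, GC handling (a loess correction with span 0.3, or the split of libraries as covariate) and tool, and left out each library. Of the 96 other pathway genes listed, 12 were absent from the normalized read counts and so were not analysed.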

Additional observations from a re-analysis of the deposited data

Results flagged for a closer look

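Pdgfc in graft BM-MSCs had 1 library far from the other 3. Graft BM-MSC 4 held 193 normalized counts against 0, 0 and 14.1, and the gap to the next library was 0.927 of the group's whole range, above Dixon's 95% critical value for 4 samples. For normally distributed values, chance flags about 1 in 20 groups of this size by this rule. The rate for counts with libraries at 0, as here, was not tested.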

How the results depend on the processing

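Counts below are given for graft against P-SSC, graft against BM-MSC and P-SSC against BM-MSC. The fit reported above gave 2464, 1046 and 1248 genes, of the 10 genes 4, 0 and 2, and of the other pathway genes 27, 14 and 11. No pair of same-numbered libraries deviated together with r over 0.1. Libraries of 1 number had r from -0.0192 to 0.0295, and pooled libraries 0.0811 (BM-MSC 2+4 with P-SSC 2+5), -0.067 (BM-MSC 2+4 with P-SSC 4), 0.0537 (graft 2 with P-SSC 2+5), 0.00333 and -0.022 (graft 2 and 4 with BM-MSC 2+4). Deviations from the means of such small groups cannot show whether libraries of the same number came from the same mice. A replicate block gave 269, 3 and 54 genes, 1, 0 and 0 of the 10, and 3, 0 and 0 pathway genes, and with GC correction 411, 2 and 77 genes, 2, 0 and 0, and 6, 0 and 0. edgeR gave 1531, 316 and 619 genes, 2, 0 and 1 of the 10, and 19, 7 and 8 pathway genes. DESeq2 gave 5 of the 10 for graft against P-SSC (Fgf2 and Pdgfd among them, Pdgfc without an adjusted p), 1948 genes for graft against BM-MSC, 1 of the 10 there and 4 between P-SSC and BM-MSC, and 24 and 17 pathway genes. The GC covariate gave 1081 and 40 genes for the graft comparisons, and 11 and 1 pathway genes. Fitting only the groups compared gave 2, 2 and 5 of the 10, and 17, 20 and 22 pathway genes. Quantile normalization gave 4 of the 10 and 20 pathway genes between P-SSC and BM-MSC, and the 5 libraries low in GC-rich genes gave 2040 genes, 7 of the 10 and 27 pathway genes. GC correction gave 1 of the 10 for graft against BM-MSC. Leaving out 1 library gave 1583 to 3005, 476 to 1584 (477 without BM-MSC 3) and 917 to 1495 genes, 2 to 5, 0 to 1 and 2 to 5 of the 10, and 18 to 33, 6 to 18 and 8 to 14 pathway genes. For graft against P-SSC the lowest were 1583 genes without P-SSC 1, 2 of the 10 without P-SSC 1 or 2+5, and 18 pathway genes without P-SSC 2+5. For graft against BM-MSC the lowest counts of all genes and pathway genes came without a BM-MSC library, and without graft BM-MSC 2 5 of the 10 passed between P-SSC and BM-MSC.

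All reversals were in graft against BM-MSC. Fgf1 (-1.05) was 0.063 with the replicate block, 0.92 with block and GC correction, 0.78 without graft BM-MSC 2 (-1.95 without graft BM-MSC 3), 0.51 by edgeR and 0.51 by DESeq2. Fgf2 was 1.69 by quantile normalization, and Fgfr3 0.0024 by edgeR and 0.0020 by DESeq2. With the GC covariate Fgfr1 was -1.90, Fgfr2 -3.08, Pdgfa -1.26, Pdgfd 0.072, Sdc3 -0.21 and Map2k2 -0.43, and with block and GC correction Pdgfd was 0.091 and Pdgfrb 0.13. The cause was not tested. Fgf7 between graft and P-SSC was called in all 23 alternatives, and Fgfr2 there in all but the replicate block (adjusted p = 0.0566, limma). The median over all genes for the graft comparisons moved from -0.47 and -0.53 to 0.29 and 0.24 with GC correction and to -0.02 and -0.17 (quantile). Graft libraries held 1 to 14 reads of Fgf2, which limits its precision.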

Other observations

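Further transducers shared by both receptor families also differed. Pik3ca, the catalytic subunit of PI3 kinase, had 60.2, 82.8 and 96.0 normalized counts in P-SSCs, 126, 123 and 105 in BM-MSCs, and 728, 193, 701 and 554 in graft BM-MSCs. Every graft library was above every steady-state library, and the rise against P-SSCs passed (2.61 ± 0.63 SE, limma adjusted p = 0.0162). Pik3r1, the regulatory subunit, was lower in P-SSCs (870, 439 and 673) than in BM-MSCs (2004, 1667 and 1768), with a log2 change of -1.51 ± 0.35 (SE; limma adjusted p = 0.0192), and graft BM-MSCs had 1123 to 2022. Nras fell in graft BM-MSCs against P-SSCs (-2.01 ± 0.55 SE, limma adjusted p = 0.0284), with 69.5 to 281 counts against 516 to 665. Hspg2 (perlecan), a heparan sulfate proteoglycan that stores FGFs in matrix, also fell against P-SSCs (-2.01 ± 0.54 SE, limma adjusted p = 0.0271). The Nras and Hspg2 calls were lost in 9 and 10 of 23 alternatives, respectively.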
